A study of Danio rerio with 12 samples.

Results

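The 57 collagen chain genes of zebrafish larvae were followed across the MB and HS fractions of WT and chchd4a-/- animals. They are the rows of the count tables, among 31778 genes, whose symbol reads col, digits, a and digits, in capitals or not. Of these, 15 encode fibrillar chains and 42 encode other chains, namely 11 network, 5 beaded, 3 anchoring, 12 FACIT, 3 multiplexin, 4 transmembrane and 4 type 28 chains. Symbols in capitals are those of the reference table of names, and where 2 genes share a symbol the gene ID is added.

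RNA was sequenced from larvae collected at 5 dpf, which were pooled before each fractionation, with 3 libraries per fraction and genotype and 12 in all. The MB fraction is what a slower spin brought down after nuclei and debris had been removed, and holds mitochondria and ER. The HS fraction is what ultracentrifugation then brought down from the rest, and holds free polysomes and some ER. WT larvae came from an incross of chchd4a+/+ siblings. chchd4a-/- larvae, labelled mia40a -/-, came from an incross of heterozygotes and were sorted at 4 dpf by the shape of their mitochondria under GFP. Larvae of both genotypes carried the transgene Tg(Xla.Eef1a1:mlsEGFP)cms1, which puts GFP into mitochondria under a promoter active in most tissues, in the AB strain. The libraries hold RNA of all tissues of the larva, so fewer cells of a type and less RNA per cell cannot be told apart. Nor can genotype be told apart from parents and sorting, which differed with it.

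Collagens are the main structural proteins of the extracellular matrix. Each molecule is a triple helix of 3 chains, which may be copies of 1 chain or products of different genes. Most chains are secreted, transmembrane chains stay in the cell surface, and both are made by ribosomes on the ER, where prolines and lysines are hydroxylated and the chaperone Hsp47 holds the helix before export. Fibrillar chains form the cross-banded fibrils of skin, bone, cartilage and tendon. Network chains form sheets such as basement membranes, and FACIT chains decorate the surface of fibrils.

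Genes summed to between 45621537 and 96059916 counts per library. All 57 chains passed the filter of more than 50 counts in every comparison, and none was at 0 in any library. ERCC spike-in RNA made up 30.03% of the counts of WT HS replicate 1, against 14.2% and 9.82% in the other WT HS libraries. Across 24897 genes, log2 levels of replicate 1, scaled by TMM, correlated with those of the other WT HS libraries at 0.951 and 0.937. The other WT HS libraries correlated at 0.995 with each other. The 13 protein genes of mtDNA took 11.74 to 17.7% of gene counts in WT MB, 5.01 to 9.46% in chchd4a-/- MB and 1.19 to 1.87% in the HS libraries. Transcripts of chchd4a, the mutated gene, were at 3.76, 12 and 12.4 CPM in WT HS and at 17.5, 11.3 and 27 CPM in chchd4a-/- HS, and at 4.58, 5.29 and 5.48 CPM in WT MB and 6.71, 7.93 and 8.21 CPM in chchd4a-/- MB. They were thus not lower in the mutant, with adjusted p of 0.098 in HS and 0.676 in MB by edgeR, and their level did not serve as a check of the genotype.

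WT HS replicate 1 also stood apart in the collagens. It held more CPM (counts per library size, scaled by TMM) of 56 of the 57 chains than any other HS library, and more of 38 of them than any of the 12 libraries. Its level was at least 2 times the mean of WT HS replicates 2 and 3 for 41 chains, with a median log2 difference of 1.23 over the chains, against -0.02 over all 24897 genes tested. Of these genes, 2872 had a log2 difference above 1. WT MB replicate 1, from the same replicate number, was the highest WT MB library for 43 chains, with a median log2 difference of 0.35 from the other WT MB libraries against 0.03 over all genes. Results for the chains that involve WT HS are therefore mostly given with and without WT HS replicate 1. Its part in them was not tested beyond that. Some values of the gene lists and markers are given with all libraries only.

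**Figure D1:**
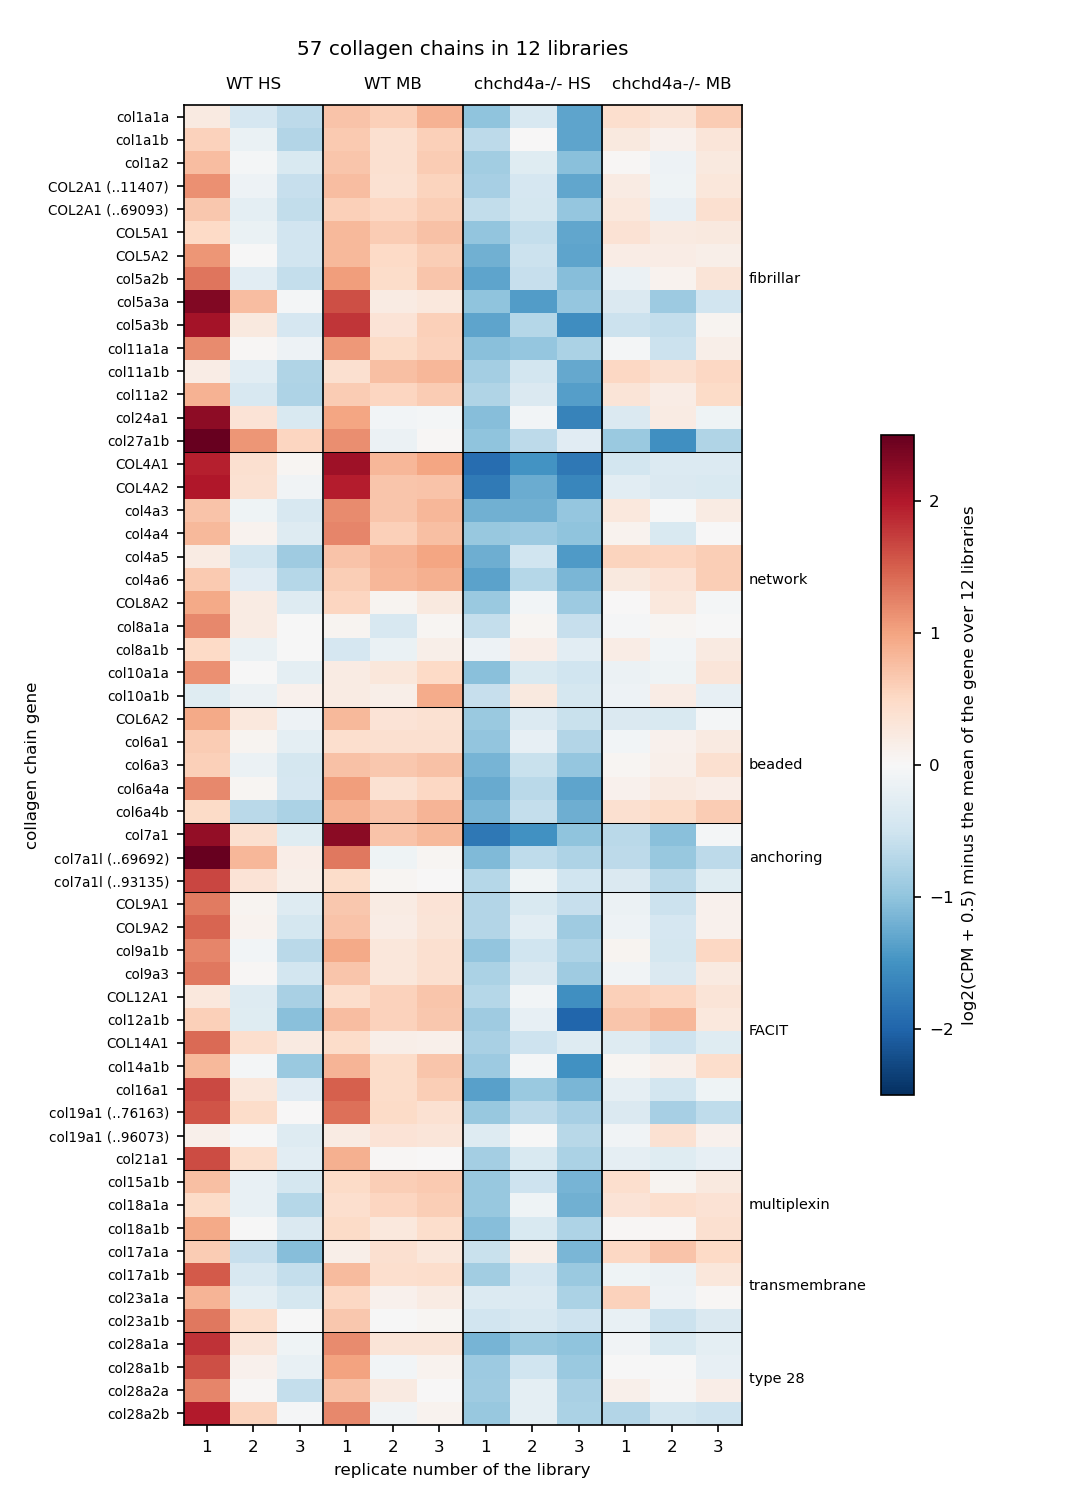
Levels of the 57 collagen chains (rows, by class) in the 12 libraries (columns), as log2(CPM + 0.5) minus the mean of each gene, on a colour scale that ends at 2.5 in size. WT HS replicate 1 is the reddest HS column for 56 chains, and the chchd4a-/- HS columns are mostly blue under this TMM scaling.

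Collagen transcripts took 1.25, 0.795 and 0.661% of gene counts in WT HS and 1.77, 1.81 and 1.92% in WT MB. In chchd4a-/- HS they took 0.514, 0.663 and 0.413%, and in chchd4a-/- MB 1.55, 1.57 and 1.93%. Every MB library thus held a larger share than every HS library, in either genotype. Reads of the 15 fibrillar genes made up most of this, at 68.6 to 73.5% of collagen CPM in WT HS, 74.3 to 77.3% in WT MB, 71.8 to 76.1% in chchd4a-/- HS and 76.2 to 77.6% in chchd4a-/- MB. These are shares of reads, not corrected for transcript length. In all 12 libraries the same 5 genes gave the most reads, namely col1a1a, col1a1b, col1a2, COL2A1 (ENSDARG00000069093) and col11a1a, which together held 53.1 to 64.1% of collagen CPM.

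After TMM scaling, the chains summed to 19272, 9709 and 7468 CPM in WT HS and to 18083.5, 14869 and 16618 CPM in WT MB, so that WT HS replicate 1 lay above all WT MB libraries on this scale. In chchd4a-/- they summed to 5939.6, 8150.3 and 5069.7 CPM in HS and to 12179.5, 10557 and 13559.6 CPM in MB, with no overlap. The 15 fibrillar chains gave 8566 ± 4098 CPM in WT HS, 12541 ± 1073 in WT MB, 4749 ± 1240 in chchd4a-/- HS and 9319 ± 1212 in chchd4a-/- MB (SD, n = 3 each). The 42 other chains gave 3584 ± 2171, 3983 ± 593, 1638 ± 367 and 2779.7 ± 298 CPM in the same order.

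**Figure D2:**
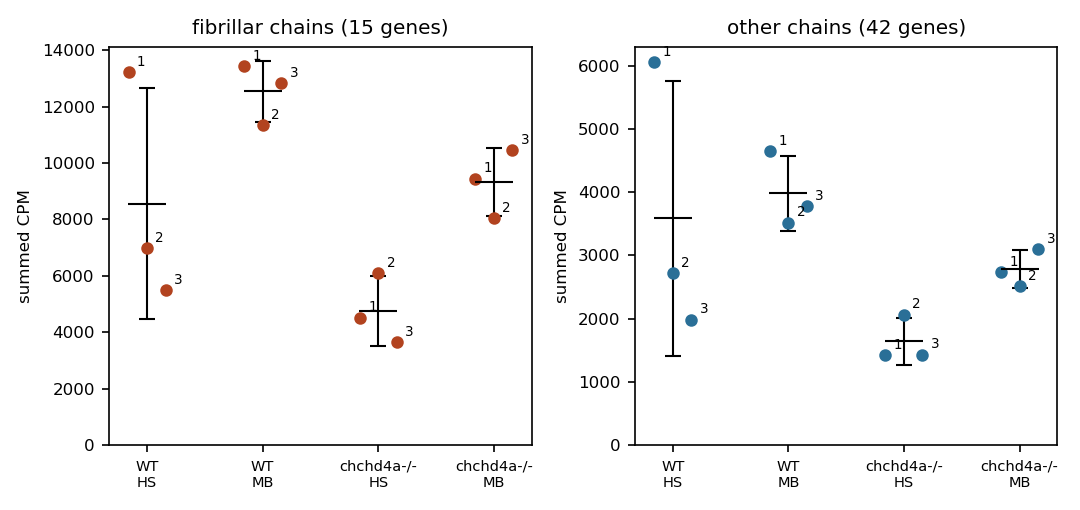
Summed CPM of the 15 fibrillar and the 42 other chains in each library, with replicate numbers beside the points and the mean ± SD of 3 libraries. Other chains reach 6055 CPM in WT HS replicate 1 against 2714 and 1982 in the remaining WT HS libraries.

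The first question was on which side of the fractionation the collagen transcripts lay. In chchd4a-/- larvae, 28 of the 57 chains were enriched in MB and none in HS, at an adjusted p of at most 0.05 (edgeR quasi-likelihood test, 3 libraries against 3). Of all 23854 genes tested, 17% were called MB-enriched and 20% HS-enriched. The fibrillar chains gave 8 of 15 and the other chains 20 of 42, and 17 chains had a log2 enrichment of at least 1, against 11.8% of genes. The median log2 MB/HS was 0.75 for fibrillar chains, 0.77 for other chains and -0.01 for all genes. By p alone, at most 0.05 and unadjusted, 36 chains were higher in MB and 0 in HS, against 23.4% and 25.5% of genes. DESeq2 called 35 and 0, against 20.3% and 21.6% of genes, and added col1a2, COL2A1 (ENSDARG00000069093), col5a3b, col6a1, col7a1, col9a1b and col14a1b to the chains called by edgeR. In 40 chains every MB library lay above every HS library, against 29.5% of genes. Under the replicate block 37 chains were called MB-enriched and 0 HS-enriched, against 24.7% and 24.9% of genes. Without chchd4a-/- HS replicate 1 the count fell to 9, without MB replicate 1 to 18, and without HS replicate 2 it was 43. All genes moved the same way, with 1721 of 23679, 2897 of 23704 and 5903 of 23573 called MB-enriched in these fits.

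In WT, with all 6 libraries, 1 chain was called MB-enriched and none HS-enriched, against 12.4% and 13.3% of 23733 genes. By unadjusted p, 7 chains were higher in MB and 0 in HS, against 21.8% and 19.7% of genes, and DESeq2 called 3 and 0, against 15.5% and 20%. The count of MB-enriched chains turned on scaling, with 22 called with library totals, against 33.7% of genes, and 55 with spike-in totals, against 75.0%. In 9 chains every MB library lay above every HS library, against 26.4% of genes. Without WT HS replicate 1, 33 chains were called MB-enriched and none HS-enriched, against 29.8% and 28% of 23579 genes, with 11 of 15 fibrillar and 22 of 42 other chains. Without any other single library the count was 0 by edgeR, against 0 to 8.72% of genes. By unadjusted p these fits had 0 to 3 chains higher in MB, against 12.1 to 18.2%. The median log2 MB/HS of fibrillar chains was 0.35 with all libraries and 0.98 without WT HS replicate 1, that of other chains 0.12 and 0.67, and that of all genes 0.08 in both. In a fit blocked by replicate number, since these numbers pair MB with HS within WT, 8 chains were called MB-enriched, namely col1a1a, col4a3, col4a4, col4a5, COL5A1, col6a4b, col10a1b and col11a1b, and col27a1b was called HS-enriched, against 21.4% and 17% of genes. Of the 33 chains called without WT HS replicate 1 and the 28 called in chchd4a-/-, 23 were shared, which is 69.7% of the first list and 82.1% of the second. The matching overlap over all genes, of which 29.8% and 17% were called MB-enriched in these fits, was not counted. The overlap is thus not read as particular to the collagens.

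The difference of MB/HS between the genotypes was tested in a fit of all 12 libraries, and no chain was called in either direction (edgeR), nor was any of 24897 genes (0%). At an unadjusted p of at most 0.05, 1 chain had a higher ratio in chchd4a-/- and 0 had a lower one, against 2014 and 1450 of all genes, and DESeq2 called 0 chains and 565 and 231 genes. With replicate number as a block within each genotype, 0 chains were called in either direction, against 2.79% of genes called higher and 0.43% lower, and by unadjusted p 11 chains were higher and 0 lower, against 11.6% and 8.76%. The log2 difference lay above 0 for 56 of 57 chains, with a median of 0.64 against -0.08 for all genes, and without WT HS replicate 1 it lay above 0 for 35 chains with a median of 0.04, with 0 chains called or past an unadjusted p of 0.05 by edgeR, against 0.0523% and 0.00805% of genes called higher and lower. Scaling to the spike-in totals turned the median of the chains to -0.52 and that of all genes to -0.75. The smallest p among the other chains was that of col8a1a, a network chain of endothelia and cornea, at a log2 difference of 1.05 ± 0.45 (SE, adjusted p = 0.322), followed by col6a4a at 1.01 ± 0.50 (adjusted p = 0.396). The log2 difference fell to 0.54 for col8a1a and 0.39 for col6a4a without WT HS replicate 1.

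**Figure D3:**
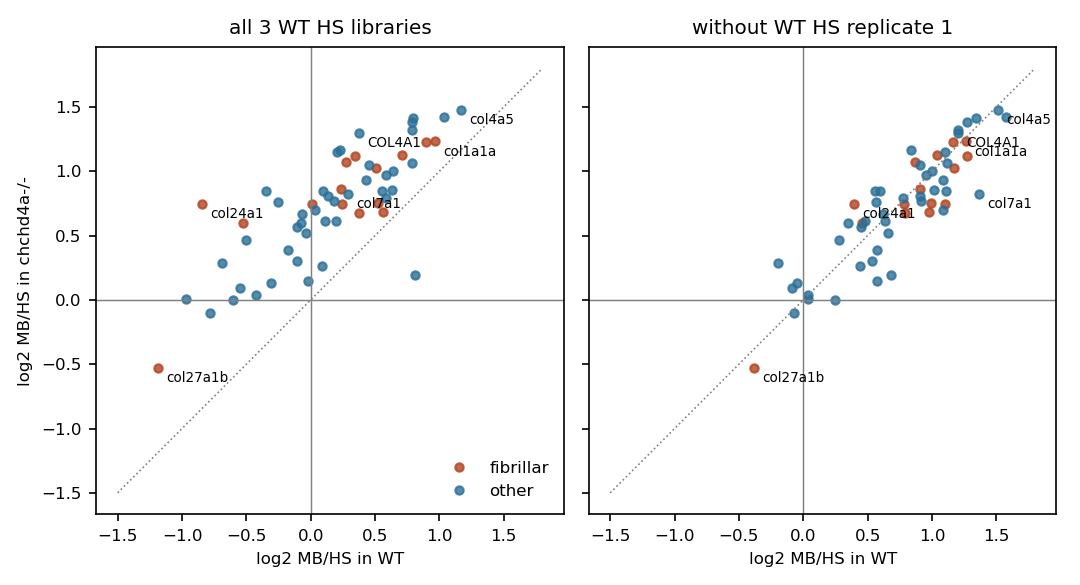
Log2 MB/HS of each chain in WT (x axis) and chchd4a-/- (y axis), with all WT HS libraries on the left and without WT HS replicate 1 on the right. The dotted line marks equal values, above which most chains lie on the left under this TMM scaling, though with spike-in totals 54 of the 57 differences between genotypes lie below 0, and col27a1b is below 0 on both axes in both panels.

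Type 1 collagen, the fibrils of skin, fins and bone, is built in zebrafish from the chains of col1a1a, col1a1b and col1a2. col1a1a was at 914, 1383 and 738 CPM in chchd4a-/- HS and at 2443, 2276 and 2835 CPM in MB. Every MB library lay above every HS library, and the log2 MB/HS was 1.23 ± 0.32 (SE, adjusted p = 0.017). In WT it was at 2143, 1376 and 1155 CPM in HS and at 3006, 2779 and 3355 CPM in MB, again without overlap, at 0.96 ± 0.30 (adjusted p = 0.055, and 0.029 with the replicate block). Leaving out WT HS replicate 1 gave 1.26 (adjusted p = 0.0043). For col1a1b the log2 MB/HS was 0.69 in chchd4a-/- (adjusted p = 0.15) and 0.56 in WT (0.27), and for col1a2 it was 0.67 (0.093) and 0.37 (0.43). Their WT values without HS replicate 1 were 0.98 (0.013) and 0.79 (0.017). All 3 genes were thus called in WT once that library was left out, and differences between the partner chains of a helix were not tested.

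Type 2 collagen forms the fibrils of cartilage and of the notochord sheath, and 2 genes carry the symbol COL2A1. ENSDARG00000069093 was at 3141, 1659.6 and 1279 CPM in WT HS, at 2979, 2794 and 2998 CPM in WT MB, at 1288, 1451 and 1003 CPM in chchd4a-/- HS and at 2343, 1706 and 2592 CPM in chchd4a-/- MB. The MB libraries of the mutant all lay above its HS libraries, with a log2 MB/HS of 0.75 ± 0.30 that was not called (adjusted p = 0.071). ENSDARG00000011407 was called in the mutant at 0.86 ± 0.29 (adjusted p = 0.04), and both were called in WT without HS replicate 1, at 0.99 and 0.91. As the 2 genes are related, the division of reads between them rests on the estimation by Salmon.

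Type 11 collagen lies within cartilage fibrils together with type 2. col11a1b gave 53.4, 70.0 and 39.1 CPM in chchd4a-/- HS and 138, 127 and 138 CPM in MB. Its log2 MB/HS was 1.23 ± 0.26 (adjusted p = 0.0069), it was called without each single library in turn, and the WT value was 0.90 ± 0.28 (0.054, and 0.046 with the block). col11a2 was called in the mutant at 1.03 (adjusted p = 0.025) and col11a1a at 0.75 (0.049, and 0.065 with the block), and without WT HS replicate 1 these chains reached 1.17 and 0.78 in WT, both called. All 3 genes of the type were thus called in the mutant with all libraries.

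Type 5 collagen sits in type 1 fibrils and limits their width. COL5A1 was at 174, 229 and 140.3 CPM in chchd4a-/- HS and at 444, 404 and 406 CPM in MB, with a log2 MB/HS of 1.13 ± 0.26 (adjusted p = 0.01). COL5A2 was close to it at 1.07 ± 0.27 (0.014), and its paralogue col5a2b at 1.11 ± 0.30 (0.019). In WT without HS replicate 1 the 3 genes reached 1.03, 0.87 and 1.27, all called. The remaining chains of the type were not called by edgeR under TMM with all libraries in either genotype unless blocked. In the mutant, col5a3a was at 0.60 (adjusted p = 0.11) and col5a3b at 0.74 (0.074), with 0.048 and 0.033 under the block, and DESeq2 gave an adjusted p of 0.092 and 0.037.

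col24a1 and col27a1b encode fibrillar chains that differ from the classical ones by a shorter, interrupted helix. col27a1b, a chain of cartilage and notochord, was the only fibrillar chain with a lower mean level in MB in both genotypes under TMM, whereas library totals gave a log2 MB/HS of -0.61 in WT and 0.29 in the mutant and with spike-in totals all 57 chains lay above 0 in both. It gave 48.3, 18 and 12 CPM in WT HS and 19, 7.28 and 8.30 CPM in WT MB, and 3.78, 4.98 and 6.56 CPM in chchd4a-/- HS and 4.04, 2.47 and 4.66 CPM in chchd4a-/- MB. Its groups overlapped in both genotypes, and the log2 MB/HS was -1.19 ± 0.59 in WT (adjusted p = 0.17) and -0.53 ± 0.31 in the mutant (0.20). With the replicate block the WT value was -1.07 (adjusted p = 0.016), and without WT HS replicate 1 it was -0.39 (0.45). col24a1 was at -0.85 in WT (adjusted p = 0.40) and 0.75 in the mutant (0.23, and 0.015 with the block), and its WT value was 0.39 without HS replicate 1.

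Among network chains, the 6 of type 4 build the basement membranes under epithelia and around muscle and vessels. All 6 were MB-enriched in chchd4a-/-, 5 of them with a log2 MB/HS of at least 1. col4a5 had the largest enrichment of all chains there, with 52.2, 86.7 and 45.1 CPM in HS and 180.2, 176 and 187 CPM in MB, or 1.48 ± 0.29 on the log2 scale (adjusted p = 0.005). It was also the chain called in WT, with 139.8, 89.1 and 65.9 CPM in HS and 201, 220.0 and 243 CPM in MB, at 1.16 ± 0.30 (adjusted p = 0.031). This WT call was lost without any single library other than HS replicate 1, without which it was 1.51. In the mutant, col4a6 followed at 1.38 ± 0.24 (adjusted p = 0.0034), col4a3 at 1.32 ± 0.21 (0.0025), COL4A1 at 1.30 ± 0.20 (0.0021), COL4A2 at 1.15 ± 0.21 (0.0043) and col4a4 at 0.85 ± 0.22 (0.016). All but col4a4 were called without each mutant library in turn. In WT without HS replicate 1, the type 4 chains lay between 1.01 and 1.51, all called but COL4A2 at 1.10 (adjusted p = 0.06). In the RefSeq annotation of GRCz12tu, col4a1 and col4a2, col4a3 and col4a4, and col4a5 and col4a6 are neighbours, with 0 protein-coding genes starting between them.

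Of the other network chains, none was called in chchd4a-/- by edgeR under TMM with all libraries unless blocked. col8a1a, col8a1b and COL8A2 (type 8) and col10a1a and col10a1b (type 10, of which the mammalian counterpart marks hypertrophic cartilage) had log2 MB/HS between 0.13 and 0.60 there. COL8A2 had an adjusted p of 0.021 under the block. col10a1a was at -0.11 in WT with all libraries and was called without HS replicate 1, at 0.45 (adjusted p = 0.04). col10a1b was the chain with the fewest counts but 1, at 0.437 to 2.15 CPM, and the only one for which WT HS replicate 1 was the lowest WT HS library.

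Type 6 forms beaded filaments around muscle fibres and other cells. col6a4b gave 10.7, 15.9 and 10.1 CPM in chchd4a-/- HS and 32.2, 34.1 and 37.8 CPM in MB, a log2 MB/HS of 1.42 ± 0.23 (adjusted p = 0.0027) that was called without each library in turn. In WT its MB libraries also lay above all HS libraries, with 33.8, 14.9 and 13.8 CPM in HS and 44.7, 40.1 and 43.9 CPM in MB, at 1.04 ± 0.36 (0.07, and 0.022 with the block). col6a4a and col6a3 were called in the mutant at 1.16 and 1.00. col6a1 and COL6A2 were not, at 0.61 (0.089, and 0.04 with the block) and 0.26 (0.39).

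FACIT chains ranged more widely. col12a1b, a chain on type 1 fibrils of fascia and fins, gave 11.3, 18.3 and 5.02 CPM in chchd4a-/- HS and 34.4, 37.8 and 25.6 CPM in MB, at 1.41 ± 0.41 (adjusted p = 0.025), and was called without 4 of 6 libraries. COL12A1 was called at 1.06 and col16a1 at 0.81. The type 9 chains COL9A1, COL9A2, col9a1b and col9a3, which coat type 2 fibrils in cartilage, were not called by edgeR under TMM, at 0.30 to 0.77, while for col9a1b the adjusted p was 0.035 under the block and 0.024 by DESeq2. Nor were COL14A1 at 0.09, col19a1 (ENSDARG00000076163) at 0.15 and col21a1 at 0.47, while col14a1b at 0.85 and col19a1 (ENSDARG00000096073) at 0.79 passed under the block, with adjusted p of 0.01 and 0.043. In WT without HS replicate 1, col9a1b at 0.91 and col9a3 at 0.66 were called, the latter from -0.03 with all libraries, while COL9A1 at 0.53 and COL9A2 at 0.57 were not.

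Of the remaining classes, the 3 multiplexins col15a1b, col18a1a and col18a1b, which bind basement membranes, were all called in chchd4a-/-, at 1.05, 0.97 and 0.85. col17a1a and col17a1b, membrane-spanning chains of epidermal hemidesmosomes, were called at 0.93 and 0.70, and col23a1a and col23a1b were not, at 0.61 (0.036 with the block) and 0.04. Of type 28, whose chains carry von Willebrand factor domains, col28a1a, col28a1b and col28a2a were called at 0.76, 0.85 and 0.67, and col28a2b was not, at 0.00. No chain of type 7, the anchoring fibrils that tie the epidermal basement membrane to the dermis, was called by edgeR under TMM without the block. col7a1 was at 0.82 (adjusted p = 0.057, 0.0069 with the block and 0.032 by DESeq2), and the col7a1l genes ENSDARG00000069692 and ENSDARG00000093135 were at 0.01 and -0.10.

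The second question was whether the level of each chain differed between the genotypes within a fraction. In HS, 30 of 57 chains were lower in chchd4a-/- and none was higher (edgeR, fit of all 12 libraries), against 11.4% and 6.66% of 24897 genes. By unadjusted p 45 chains were lower and 0 higher, against 18.2% and 16% of genes, and by DESeq2 41 and 0, against 14.9% and 10.8%. The 30 chains were 8 of 15 fibrillar and 22 of 42 other chains, the latter 6 of 11 network, 3 of 5 beaded, 3 of 3 anchoring, 4 of 12 FACIT, 2 of 3 multiplexin, 1 of 4 transmembrane and 3 of 4 type 28 chains, and 28 of the 30 fell by at least 1 on the log2 scale, against 9.62% of genes. In 28 chains every chchd4a-/- library lay below every WT library, against 16.8% of genes. Under TMM the log2 fold change of all 57 chains was negative, with medians of -1.15 for fibrillar and -1.07 for other chains and 0.07 for all genes, whereas spike-in scaling turned the median of the chains to 1.20 and that of all genes to 1.82. Relative to all genes the chains' median was lower by both scalings, at -1.14 and -0.62. Of the chains, 5 stayed below 0 with spike-in totals, namely COL4A1 at -0.43, col5a3a at -0.36, col7a1 at -0.18, COL4A2 at -0.17 and col27a1b at -0.08, none of them called, and 4 were called higher, namely col17a1a, COL12A1, col8a1b and col1a1b, against 53.5% of genes. Without WT HS replicate 1, 13 chains were called lower, all of them among the 30, and 0 higher, against 8.04% and 5.56% of 24833 genes, and the median of the 57 was -0.52. The count was 7 without chchd4a-/- HS replicate 1, 16 without chchd4a-/- HS replicate 3 and 46 without WT HS replicate 3. These stood against 5.25%, 10.3% and 15.3% of genes called lower in the same fits.

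COL4A1 and COL4A2, whose products join in 1 helix of basement membranes, had among the largest falls. COL4A1 was at 151, 51.3 and 40.2 CPM in WT HS and at 9.93, 13.5 and 10.9 CPM in chchd4a-/- HS. The groups did not overlap, and the fold change was -2.82 ± 0.48 on the log2 scale (adjusted p = 0.0038). Leaving out WT HS replicate 1 gave -1.96 (0.0029). COL4A2 was at 138, 44.7 and 32.3 CPM in WT HS and at 9.72, 14.2 and 10.7 CPM in chchd4a-/- HS, a log2 fold change of -2.63 ± 0.50 (adjusted p = 0.0053), and -1.70 (0.0077) without that library. The mean WT level was 7.05 times that of the mutant for COL4A1 and 6.20 times for COL4A2, or 3.99 and 3.33 times over WT HS replicates 2 and 3.

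**Figure D4:**
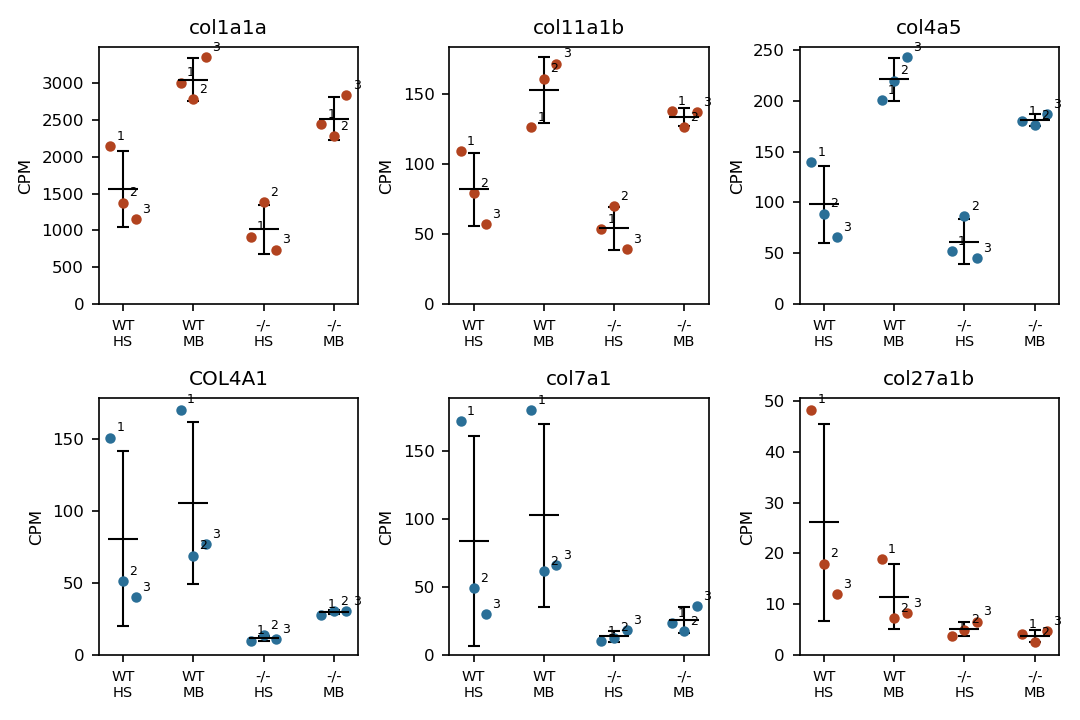
CPM of 3 fibrillar chains (red) and 3 other chains (blue) in each library, with replicate numbers and the mean ± SD of 3 libraries. For COL4A1, every chchd4a-/- HS library (9.93 to 13.5 CPM) is below every WT HS library (40.2 to 151 CPM).

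The other neighbouring pairs of type 4 genes had smaller values. col4a3 and col4a4 were at -1.38 ± 0.29 (adjusted p = 0.007) and -1.29 ± 0.29 (0.01), and at -0.93 (0.012) and -0.87 (0.027) without WT HS replicate 1. col4a5 and col4a6 were at -0.68 ± 0.30 (0.13) and -1.05 ± 0.31 (0.035), and at -0.29 (0.53) and -0.52 (0.16) without it. Pairs were not compared by a test.

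Besides COL4A1, COL4A2, col4a3 and col4a4, the chains col5a3a, COL14A1 and col28a1a were called lower without each of the 12 libraries in turn. col5a3a was at 24.9, 8.18 and 4.45 CPM in WT HS and 2.03, 1.45 and 2.13 CPM in chchd4a-/- HS, or -2.73 ± 0.58 (adjusted p = 0.0078). COL14A1, a FACIT chain of tendon and skin in mammals, was at 30.03, 15 and 13 CPM against 6.05, 7.51 and 8.77 CPM, or -1.37 ± 0.29 (0.0082). col28a1a was at 59.5, 20.5 and 15.5 CPM against 7.19, 8.43 and 8.03 CPM, or -2.01 ± 0.43 (0.0079). In each of these chains the lowest WT HS library lay above the highest mutant library.

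All 3 genes of type 7 were called lower under TMM, with a median of -2.41, whereas with spike-in totals none was called, at -0.18 for col7a1 and 0.078 and 0.84 for the col7a1l genes. col7a1 was at 172, 49.3 and 30.1 CPM in WT HS and 10.4, 12.8 and 18.4 CPM in chchd4a-/- HS, or -2.59 ± 0.61 (adjusted p = 0.012). col7a1l (ENSDARG00000069692) was at 106, 32.4 and 20.4 CPM against 8.08, 11.4 and 10.4 CPM, or -2.41 ± 0.54 (0.01). Their WT libraries did not overlap the mutant libraries. Without WT HS replicate 1 they were at -1.49 (0.045) and -1.37 (0.031), while col7a1l (ENSDARG00000093135) was at -0.75 (0.10) and no longer called.

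Among fibrillar chains the falls ranged from -0.55 to -2.73. The 3 type 1 genes and both COL2A1 genes were not called, at -0.55 for col1a1b, -0.62 for col1a1a, -0.90 for col1a2, -0.70 for COL2A1 (ENSDARG00000069093) and -1.15 for COL2A1 (ENSDARG00000011407), with adjusted p from 0.054 to 0.30. col27a1b was called at -2.35 ± 0.51 (adjusted p = 0.0089), and so was col5a3b, at 466, 131 and 81.7 CPM in WT HS and 43.8, 67.0 and 37.1 CPM in chchd4a-/- HS, at -2.20 ± 0.58 (0.021). col24a1 at -2.19, col5a2b at -1.54, col11a1a at -1.42, COL5A2 at -1.35 and COL5A1 at -0.94 were also called. Of all these, col5a3a at -1.73 (0.02) and col27a1b at -1.52 (0.027) were still called without WT HS replicate 1. For type 11, col11a1a was at 1749.7, 785 and 708 CPM in WT HS and 374, 392 and 442 CPM in chchd4a-/- HS, while its paralogue col11a1b was at 109, 79.6 and 57.2 CPM and 53.4, 70.0 and 39.1 CPM, with overlap, at -0.60 (0.14). col11a2 was not called, at -0.85 (0.13).

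Other chains called lower with and without WT HS replicate 1 were col16a1 at -1.94 and -1.13, col19a1 (ENSDARG00000076163) at -1.69 and -1.06 and col6a4a at -1.53 and -0.88. Called with all libraries alone were COL6A2, col6a3, col10a1a, col15a1b, col18a1b, col21a1, col23a1b, col28a1b and col28a2b besides those named. The chains nearest to no difference were col10a1b at -0.19, col8a1b at -0.22 and col17a1a at -0.28. The values of col17a1a and col8a1b turned to 0.42 and 0.07 without WT HS replicate 1.

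**Figure D5:**
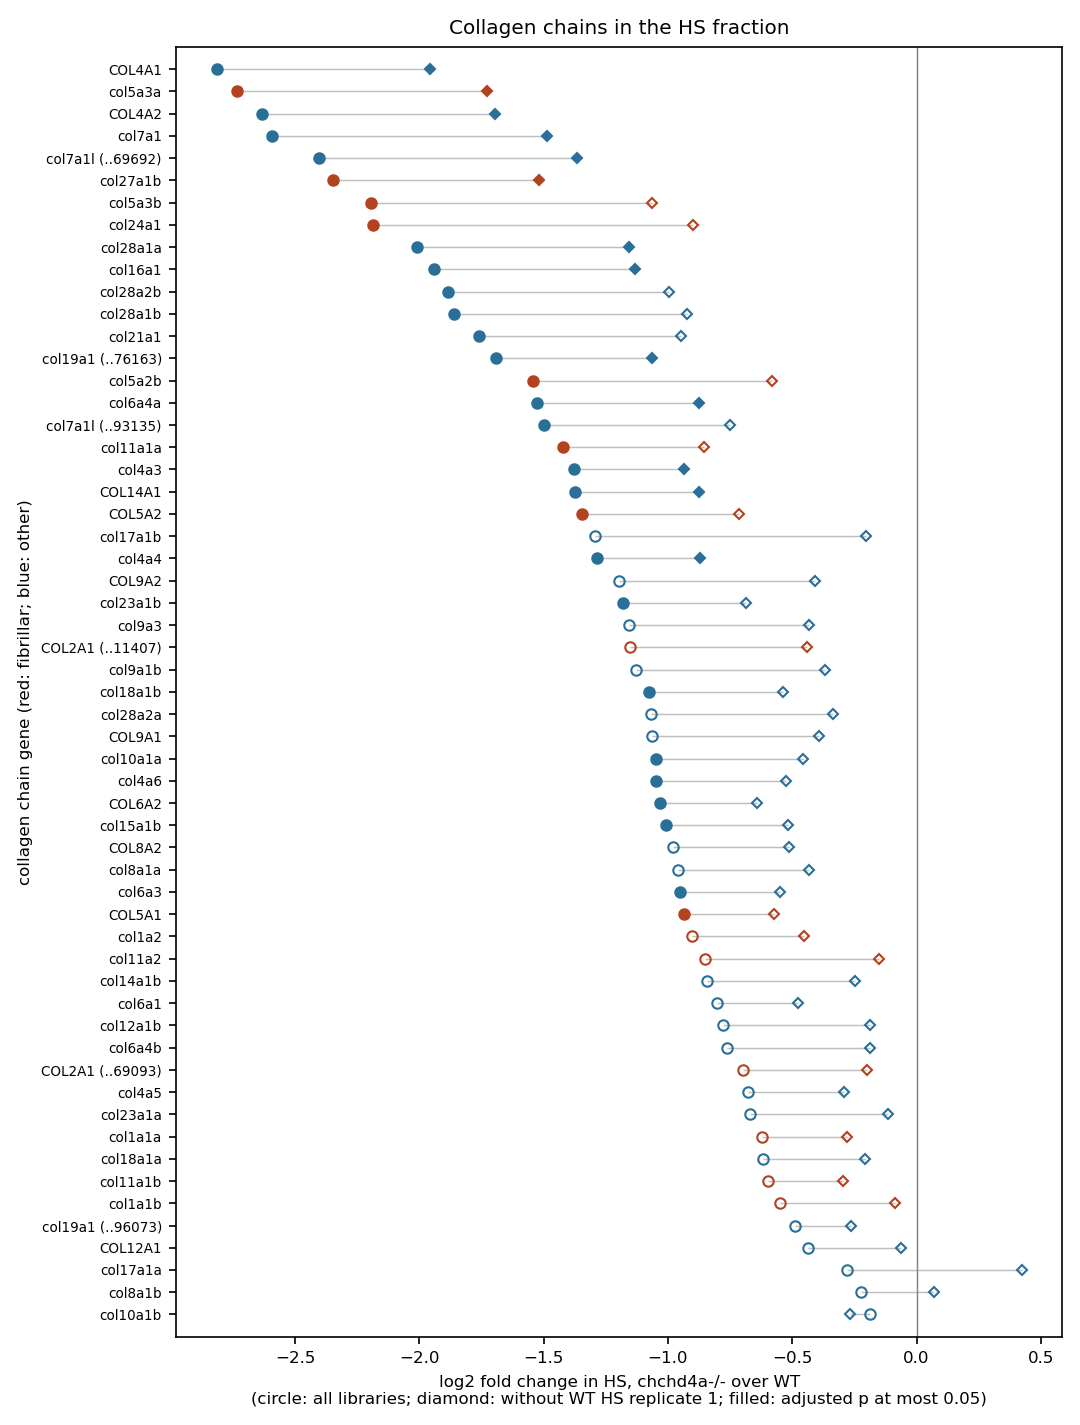
Log2 fold change of each chain in HS, chchd4a-/- over WT under TMM scaling, with all libraries (circles) and without WT HS replicate 1 (diamonds), filled where the adjusted p is at most 0.05. All circles lie below 0, 30 of them filled, and 13 diamonds are filled. With spike-in scaling 52 of the 57 values lie above 0.

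In MB, no chain was called in either direction between genotypes (edgeR), against 5 genes called higher (0.0201%) and 6 called lower (0.0241%) of 24897. At an unadjusted p of at most 0.05, 16 chains were lower and 0 higher, against 6.35% and 3.95% of genes, and DESeq2 called 3 lower, against 1.31%. In 39 chains every chchd4a-/- library lay below every WT library, against 15.1% of genes. The log2 fold change lay below 0 for 54 chains, with a median of -0.52 against -0.02 for all genes. It depended on scaling, as 39 chains lay below 0 with library totals (median -0.17, all genes 0.30) and 7 with spike-in totals (0.66 and 1.08). COL4A1 was at 170.1, 68.9 and 76.8 CPM in WT MB and at 28.1, 30.7 and 30.5 CPM in chchd4a-/- MB, or -1.82 ± 0.46 (adjusted p = 0.17). The groups did not overlap, and the mean WT level was 3.54 times that of the mutant. col19a1 (ENSDARG00000076163) was at 50.2, 27 and 25.1 CPM against 14.8, 10.5 and 12.1 CPM, or -1.45 ± 0.38 (0.18). In the fit of 11 libraries without WT HS replicate 1, whose spread is estimated without it, COL4A1 at -1.79 (0.033), COL4A2 at -1.58 (0.05) and this col19a1 gene at -1.42 (0.043) were called lower and 0 chains higher, against 0.35% and 0.197% of 24833 genes.

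Genes that serve collagen biosynthesis were described from lists, with calls by edgeR. Of 22 genes for ER enzymes and chaperones of procollagen, 3 were MB-enriched and 1 HS-enriched in chchd4a-/-, with a median log2 MB/HS of 0.02 (-0.01 for all genes), against the 17% and 20% of all genes called there. The called genes were COLGALT1 (ENSDARG00000058270), which adds galactose to hydroxylysine, at 0.94, the lysyl hydroxylase genes plod2 and plod1a at 0.81 and 0.75, and ppib, a prolyl isomerase, at -0.90. In WT, serpinh1b, which encodes Hsp47, was the gene called, with 344, 202 and 231 CPM in HS and 84.6, 77.5 and 85.2 CPM in MB, or -1.66 ± 0.26 (adjusted p = 0.0082). In chchd4a-/- it was at 69.3, 71.8 and 260.2 CPM in HS and at 49.9, 26.6 and 96.9 CPM in MB, with overlap and -1.27 ± 0.58 (0.11). In WT it thus lay in HS by TMM and by library totals (-1.10), but in MB by spike-in totals (1.04), where the median of all genes stood at 2.62. Without WT HS replicate 1, 7 genes of this list were MB-enriched in WT, against 29.8% of all genes, and serpinh1b stayed on the HS side at -1.40. The other serpinh1 gene of this list is serpinh1a. It was at 33.4, 51.3 and 50.7 CPM in WT HS and at 42.03, 52.7 and 55.4 CPM in WT MB, with overlap. In chchd4a-/- these levels were 24.2, 43.4 and 57.1 CPM and 26.6, 28.5 and 55.5 CPM. The WT call in HS was thus that of serpinh1b and not of serpinh1a.

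Of 19 genes for procollagen export, 5 were MB-enriched and none HS-enriched in chchd4a-/-, against 17% and 20% of all genes there. In WT these were 4 and 1, against 12.4% and 13.3%. The WT numbers were 8 and 4 without HS replicate 1, against 29.8% and 28%, and 9 and 1 with the block, against 21.4% and 17%. mia2 and mia3 encode receptors at ER exit sites. mia2 was at 1.19 in the mutant and 1.25 in WT, and mia3 was called in the mutant, at 0.85. creb3l2, a transcription factor of secretory cargo, was at 0.97 and 1.17. klhl12 (ENSDARG00000100631), an adaptor for large COPII coats, was called at 0.83 and 1.29, at group means of 0.849 to 2.25 CPM. The other gene of this symbol, KLHL12 (ENSDARG00000112728), had higher means in HS than in MB. These were 13.3 against 9.77 CPM in WT and 13.8 against 9.96 CPM in the mutant. sec23a was at -0.68 in WT. Of 20 tested genes for processing and cross-linking, 2 were MB-enriched in the mutant, against 17% of all genes. These were ADAMTS3 at 1.13 and bmp1b at 0.96, both encoding enzymes that trim procollagen. In WT bmp1b was the 1 called, at 1.21, against 12.4% of all genes. Without HS replicate 1, 10 genes of this list were MB-enriched in WT, against 29.8% of all genes.

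Of 56 other matrix genes, 21 were MB-enriched and 1 HS-enriched in chchd4a-/-, against 17% and 20% of all genes. In WT these were 9 and 1, against 12.4% and 13.3%, or 33 and 1 without WT HS replicate 1, against 29.8% and 28%. The laminin chain genes lama1 and lamc1 and HSPG2, which encodes perlecan, had the largest enrichments in the mutant, at 2.03, 1.64 and 1.58. In WT these were lama1 at 1.88, lama5 at 1.23 and LAMB2 at 1.18. nid2b, a nidogen gene of low level, was the HS-enriched gene at -1.53 and -1.47. The count in the mutant was 7 without HS replicate 1 and 32 without HS replicate 2. Of 14 tested collagen receptor genes, 6 were MB-enriched in the mutant, led by ddr2l at 1.36, itgb1b at 1.35 and itgb1b.1 at 1.05, and 3 in WT, itgb1a at 1.03, DDR2 at 0.87 and DDR1 at 0.61 (10 without HS replicate 1), against the same shares of all genes.

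Between genotypes in HS, few genes of these lists were called. Of 56 other matrix genes 5 were lower in chchd4a-/- and none was higher, with a median of -0.31, against 11.4% and 6.66% of all genes and a median of 0.07. The largest falls were those of elnb, an elastin gene, at -1.92, vcana, a versican gene, at -1.75 and TNR, for tenascin R, at -1.70, and all were called without WT HS replicate 1 as well, at -1.22, -1.11 and -1.29. With spike-in totals they lay above 0, at 0.51, 0.31 and 0.43. COLGALT1 (ENSDARG00000058270) was the ER enzyme gene called, at -0.85 (adjusted p = 0.044, and 0.18 without WT HS replicate 1). Of the export genes, creb3l3a, a membrane-bound transcription factor, was lower at -2.63 and SEC24A higher at 1.53, and of the receptor genes itga2.3 was lower at -1.40. Of 21 processing genes 0 were called by edgeR, with 2 lower and 0 higher at an unadjusted p of at most 0.05, and the same numbers by DESeq2.

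Markers of cell types of the larva were summed per library, first those of cells that make much collagen. The 8 chondrocyte markers gave 1534, 910 and 844 CPM in WT HS and 799, 1079 and 788 CPM in chchd4a-/- HS, with overlap, and 0 were called between genotypes in HS by edgeR, with 1 lower at an unadjusted p of at most 0.05 and 1 lower by DESeq2. Fibroblast markers (5 genes) gave 236 to 336 CPM in WT HS and 243 to 350.1 CPM in chchd4a-/- HS, notochord markers (6 genes) 128 to 137 and 127 to 161 CPM, and osteoblast markers (6 genes) 11.8 to 14.1 and 11.4 to 22.3 CPM, and 0 of these genes were called in HS by either tool, with 1 notochord marker higher at an unadjusted p of at most 0.05. Of the 6 epidermis markers, krt91 was higher at 1.31 and tp63 lower at -0.77 in chchd4a-/- HS, with sums of 13494 to 18028 CPM in WT HS and 17530 to 30283 CPM in chchd4a-/- HS. Markers of 2 other tissues were summed in the same way. The 4 liver markers gave 1279, 2082 and 2458 CPM in WT HS and 2943, 4225 and 2848 CPM in chchd4a-/- HS, all mutant libraries above all WT libraries, with 0 called by edgeR, 1 higher at an unadjusted p of at most 0.05 and 1 higher by DESeq2. The 7 muscle markers gave 10285 to 15240.5 CPM in WT HS and 10656 to 20476 CPM in chchd4a-/- HS, with 0 called by edgeR, 1 higher and 1 lower by unadjusted p and 1 higher by DESeq2. No marker was at 0 over a group. Like the collagens, the chondrocyte, fibroblast and muscle sums were highest in replicate 1 among WT HS libraries. The osteoblast, notochord, epidermis and liver sums were not, though every notochord marker but CAV1 was highest there. CAV1 was at 32.4, 60.0 and 58.5 CPM in WT HS, and ntd5 at 74.5, 55.8 and 49.2 CPM. Their means also went opposite ways between genotypes in HS. CAV1 was at 50.3 CPM in WT and 76.6 CPM in chchd4a-/-, and ntd5 at 59.8 and 45.1 CPM. Single markers of the chondrocyte, fibroblast and muscle lists were lowest in WT HS replicate 1, such as hapln1a, PDGFRA and actn3b. The part of these cell types in the lower chain levels was not tested.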

How the data were processed

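ERCC RNA was added to a fixed amount of RNA extracted from each MB or HS sample, which was captured by polyA and sequenced as stranded pairs of 75 nt. Spike-in totals thus scale to the amount of extracted RNA, not to a whole fraction or a larva. The paper names ExFold mixes but not which mix each library received, and the totals summed all spike-in rows without regard to the mix. The authors estimated transcript abundance with Salmon (1.4.0) on GRCz11 (danRer11) with the Ensembl annotation, and deposited expected counts per gene, of which 26.5 to 32.6% per library were not whole. They were rounded here. Symbols came from the study's gene table (20 chains) and a reference table (37 chains), and 92 spike-in rows were kept out of library sizes.

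Genes with more than 50 counts in the libraries compared were scaled by TMM and tested with the quasi-likelihood F-test of edgeR (4.0.16, R 4.3.3, prior count 0.125) with Benjamini-Hochberg adjustment over all genes tested. MB and HS were compared within each genotype on 6 libraries, and genotypes on all 12. A call is an adjusted p of at most 0.05. Errors of log2 fold changes are SE, derived as the size of the log2 fold change over the square root of the F statistic, since the test itself gives none. The labels do not say that replicates are separate clutches, so p-values measure the spread between these libraries. Over the 12 libraries the chains held 698 to 2128743 counts each, so the lowest chains carry the largest counting error.

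Replicate numbers of the 2 fractions of a genotype deviated together over 24897 genes, with correlations of 0.597, 0.553 and 0.475 in WT and 0.312, 0.316 and 0.539 in chchd4a-/-. Unlike numbers gave -0.570 to 0.504 in WT and -0.387 to 0.123 in chchd4a-/-. WT HS replicate 3 with MB replicate 2 gave 0.504, above the 0.475 of HS and MB replicate 3, and HS replicate 2 with MB replicate 3 gave 0.342. The pairing of WT replicates 2 and 3 is thus less certain than that of replicate 1. Replicate numbers of a genotype were taken as paired in the replicate block of MB/HS and of its difference. The main fits, which gave the first counts of each comparison, did not use this pairing. Across genotypes the correlations ran from -0.194 to 0.324, and the numbers were not taken as paired. Alternatives were a replicate block, DESeq2 (1.42.0), scaling to spike-in totals or to library totals, a minimum of 10 counts per library or none, 1 fit of all 12 libraries and omitting each library. A fit that omits both WT libraries of replicate 1 was chosen after seeing the data. Scripts were tested on simulated counts.

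Members and gene lists were chosen with earlier results of these data known. Named with their values by rule were all fibrillar chains, the other chains with the largest called changes or smallest p, chchd4a and up to 3 called genes of each list and direction. Other chains were named by family after their values were seen. Levels per transcript length and protein sequences were not used here, so levels are not compared between genes.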

Additional observations from a re-analysis of the deposited data

How the results depend on the processing

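The number of chains called MB-enriched in WT, 1 by edgeR with TMM, was 3 by DESeq2, 5 with all 12 libraries in 1 fit, 3 with at least 10 counts in every library, 22 with library totals, 0 with no filter, 8 with the replicate block, 55 with spike-in totals and 38 without replicate 1 of both WT fractions, and ran from 0 to 33 when each library was left out. The share of all genes called MB-enriched was 12.4% by edgeR with TMM, 15.5% by DESeq2, 15.8% in the fit of 12 libraries, 33.7% with library totals, 75.0% with spike-in totals and 36.4% without replicate 1 of both WT fractions. It was 14.1% with at least 10 counts in every library, 7.83% with no filter and 21.4% with the block. When each library was left out it ran from 0 to 29.8%. The number called HS-enriched in WT, 0 by edgeR with TMM, was 1 with the block and 2 without replicate 1 of both WT fractions. In chchd4a-/-, the 28 MB-enriched chains became 18 with all 12 libraries in 1 fit, 56 with library totals and 57 with spike-in totals (17.2%, 52.5% and 75.9% of all genes). They ran from 9 to 43 when each library was left out, against 1721 of 23679 to 5903 of 23573 genes. The 30 chains lower in chchd4a-/- HS became 18 without replicate 1 of both WT fractions (8.75% of all genes). They ran from 7 to 46 when each library was left out (5.25 to 15.3% of all genes). With spike-in totals 0 were lower and 4 higher (0.193% and 53.5% of all genes). The chains lower in chchd4a-/- MB, 0 by edgeR, were 3 by DESeq2, 1 without replicate 1 of both WT fractions and 0 to 3 when each library was left out. These stood against 1.31%, 0.0405% and 0.00404 to 0.35% of all genes. Spike-in totals put the median of all genes at 2.62 (WT MB/HS), 1.92 (chchd4a-/- MB/HS), 1.82 (HS between genotypes) and 1.08 (MB), and library totals at 0.58, 0.81, 0.13 and 0.30. The medians of fibrillar and other chains relative to all genes, with each library left out, ran in WT MB/HS from -0.16 to 0.90 and from -0.32 to 0.58, and in HS between genotypes from -1.60 to -0.65 and from -1.53 to -0.59. Across genotypes, where the numbers do not pair the samples, the block gave 26 lower chains in HS and 0 in MB. In the difference of MB/HS the block ran within each genotype, and it called 0 chains, against 2.79% of all genes higher and 0.43% lower.

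Single chains with a call in at least 1 of 2 fits whose sign changed between them were as follows. In WT MB/HS, without HS replicate 1, col9a3 turned to 0.66 and col10a1a to 0.45, against -0.49 for each without HS replicate 3, and without replicate 1 of both WT fractions COL9A1 turned to 0.38, col9a3 to 0.54 and col10a1a to 0.51. With spike-in totals the WT values turned for col5a3a (2.37), col7a1l (ENSDARG00000093135, 2.14), COL8A2 (2.72), col8a1a (2.14), col8a1b (2.46), COL9A1 (2.81), COL9A2 (2.80), col9a3 (2.93), col10a1a (2.86), COL14A1 (2.26), col19a1 (ENSDARG00000076163, 2.76), col21a1 (2.40), col23a1b (2.33), col24a1 (2.24), col28a1a (2.66), col28a1b (2.53), col28a2a (2.87) and col28a2b (2.24). In chchd4a-/- MB/HS these were col7a1l (ENSDARG00000093135), at 0.73 with library totals and 1.70 with spike-in totals, and col27a1b at 1.37 with spike-in totals. In HS between genotypes, with spike-in totals, they were col1a1b 1.77, col4a3 0.67, col4a4 0.81, col4a6 1.18, COL5A1 1.21, col8a1b 1.79, COL12A1 1.83, col17a1a 2.17, COL5A2 1.00, col5a2b 0.94, col5a3b 0.44, COL6A2 1.08, col6a3 1.18, col6a4a 0.81, col7a1l 0.078 (ENSDARG00000069692) and 0.84 (ENSDARG00000093135), col10a1a 1.15, col11a1a 0.70, COL14A1 0.71, col15a1b 1.21, col16a1 0.43, col18a1b 1.15, col19a1 0.56 (ENSDARG00000076163), col21a1 0.67, col23a1b 0.98, col24a1 0.66, col28a1a 0.34, col28a1b 0.60 and col28a2b 0.59. Signs of values called in neither fit changed as well, for 13 more WT chains without HS replicate 1 and for 53 of the 57 differences of MB/HS with spike-in totals. Levels per gene length and protein features were planned and not run. The cause of these changes was not tested.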
